A study of Mus musculus with 2 samples.

Results

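The miR-15 family is a set of miRNA genes whose mature products carry the same seed, the stretch of bases 2 to 8 through which a miRNA pairs with its target messages. The 7 mouse genes Mir15a, Mir16-1, Mir15b, Mir16-2, Mir195a, Mir497 and Mir322 were taken by symbol from the 2202 miRNA genes of the deposited count tables, and all 7 were measured. The tables come from small RNA sequencing of total RNA from hearts of female B6CASTF1/J mice, the first-generation cross of C57BL/6 and CAST strains, aged 36 days. There was 1 group, for which the labels give no treatment, with n = 2 libraries: biological replicates 1 and 2, each labelled as a heart with a record of its own, although both records carry the same donor code. The design holds no contrast between conditions, so levels are described, and differences between the libraries measure the spread between these samples, which may be partly technical.

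A miRNA is cut from a hairpin transcript, and 1 arm of the hairpin, here the 5p arm, is mostly the one loaded into the silencing complex as the guide. Guides of the miR-15 family are known to lower cyclins, other proteins that drive the cell cycle and the survival factor Bcl2. In the mouse heart, miR-195 is known for its part in the withdrawal of heart muscle cells from the cell cycle after birth, and Mir322 is the mouse counterpart of the human miR-424 gene.

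The guide arms show what joins the family and where its members part. Each is printed from 5′ to 3′ with the seed in capitals, as given by RefSeq on GRCm38.p6, the assembly that mm10 names. All 7 genes were matched by symbol.
miR-15a-5p: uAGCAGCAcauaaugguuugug
miR-15b-5p: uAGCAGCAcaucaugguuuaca
miR-16-5p: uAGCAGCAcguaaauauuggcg
miR-195a-5p: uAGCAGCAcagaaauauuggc
miR-497a-5p: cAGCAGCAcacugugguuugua
miR-322-5p: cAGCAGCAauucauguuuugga
The 7 genes gave 6 distinct guide sequences, since Mir16-1 and Mir16-2 encode the same one, and all 6 had the seed AGCAGCA. Over the first 21 bases, 9 positions, counted from 1 at the 5′ end, were the same in all 6 guides: the 7 of the seed and positions 17 and 18. The closest pair was miR-16-5p and miR-195a-5p, with 19 of 21 bases the same and the substitutions G10A and U11G from the first to the second. Next came miR-15b-5p and miR-15a-5p, with 18 of 22 bases the same and the substitutions C12A, A20G, C21U and A22G. The least alike were miR-16-5p and miR-497a-5p, with 11 of 22 bases the same. The guides from Mir497 and Mir322 began with C and the others with U. The 7 opposite (3p) arms had 7 different seeds, so the shared seed belongs to the 5p arms.

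The seed was rare among annotated miRNAs. Of 1738 mature entries in the RefSeq table, 11 had AGCAGCA at bases 2 to 8, from the 7 members and 4 other genes. These 4 are shown because a count at any of them would add to the same seed.
miR-195b: uAGCAGCAcagaaauaguagaa
miR-6342: cAGCAGCAaucuggucuuugag
miR-6353: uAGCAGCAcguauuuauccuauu
miR-6419: cAGCAGCAaucugacacaugga
Mir195b, Mir6342, Mir6353 and Mir6419 had 0 counts in both libraries, which allows up to 1.45 CPM in the first library and 1.70 CPM in the second (3 counts per library, counting error only). CPM here is the number of sense-strand reads of a gene per 1000000 such reads over all miRNA genes. Mir503, a neighbour of Mir322 often placed in the same family, differs from the members inside the seed (miR-503-5p: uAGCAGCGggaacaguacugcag).

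The genes lie at 4 loci of mm10. Mir15a (chr14:61632027-61632110, minus strand) and Mir16-1 (chr14:61631880-61631972) lie 54 bases apart in Dleu2, a non-coding gene, Mir15a in an intron and Mir16-1 overlapping an exon of an isoform in GENCODE M21. Mir15b (chr3:69009772-69009835, plus strand) and Mir16-2 (chr3:69009902-69009996) lie 66 bases apart in an intron of Smc4, which encodes a condensin subunit. Mir497 (chr11:70234717-70234800, plus strand) and Mir195a (chr11:70235042-70235135) lie 241 bases apart, with no annotated host on their strand. Mir497b is annotated across Mir497 on the opposite strand. Mir322 (chrX:53054255-53054349, minus strand) lies between annotated genes at the head of a cluster of 7 miRNA genes.

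The 2 miR-16 hairpins are printed, with the guide arm in capitals, because their shared arm decides what their counts can say.
Mir16-1: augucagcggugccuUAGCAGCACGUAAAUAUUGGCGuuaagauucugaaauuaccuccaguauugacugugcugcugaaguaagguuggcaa
Mir16-2: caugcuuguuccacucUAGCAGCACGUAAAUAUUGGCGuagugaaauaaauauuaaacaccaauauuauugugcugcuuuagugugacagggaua
The longest run these hairpins share is 23 bases, the whole guide and 1 base after it. A read of the guide alone matches both loci, and multimapping reads, 42.0% of all reads in replicate 1 and 39.8% in replicate 2, were kept apart and given to no gene. The counts of Mir16-1 and Mir16-2 therefore do not give the level of miR-16-5p. For the other 5 members, no run of 18 bases recurred in another of the 2202 annotated hairpins. The longest shared run was 16 bases, between Mir195a and Mir195b, and 12 or 13 bases for Mir15a, Mir15b, Mir497 and Mir322. The table does not separate the arms of a hairpin, so each value below sums the 5p and 3p reads of a gene.

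The libraries held 2074961 sense-strand counts in miRNA genes in replicate 1 and 1766135 in replicate 2, so 1 read was worth 0.482 and 0.566 CPM. The 2 files were not copies of 1 library, since their counts over the 359 genes tested below gave a chi-square of 150266 on 358 degrees of freedom. All 3 cardiac muscle markers, which lie in myosin heavy chain genes, were detected (2 CPM or more in both libraries), with Mir208a at 3809 and 5069 CPM, and 5 of 6 neuronal markers (Mir124a and Mir9 genes) were at 0 in both libraries. The neuronal guides are encoded at several loci, so multimapping reads leave little weight on these counts of 0. Endothelial, smooth muscle, fibroblast, erythroid, leukocyte, liver and epithelial markers were also present. Each member's level is thus a sum over all the cell types that a sample held. Where the reads of the liver and epithelial markers came from was not tested. In bulk tissue, fewer cells of a type and less RNA per cell cannot be told apart.

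All 7 members were detected in both libraries, and together they held 1.37% of miRNA gene counts in replicate 1 (95% exact interval 1.35 to 1.38, counting error only) and 1.05% in replicate 2 (1.03 to 1.06). The sum was 13672 CPM in replicate 1 and 10487 CPM in replicate 2, with a mean of 12079.7 ± 2252 CPM (SD, n = 2). Mir322 was the highest member in both libraries and Mir16-2 the lowest. Their mean levels differed by 19.2 times, but the Mir16-2 value lacks the guide reads shared with Mir16-1, as do the sums and shares that hold a miR-16 gene. Among the other 5 members, Mir322 was the highest and Mir497 the lowest by mean, 6.43 times apart.

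**Figure D1:**
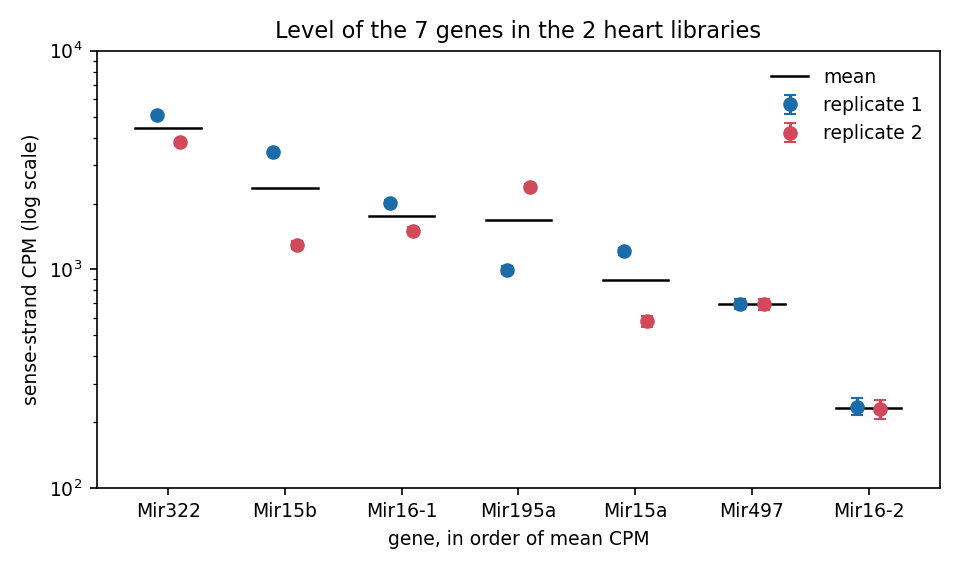
Sense-strand CPM (log axis) of the 7 genes, ordered by mean, in replicate 1 (blue) and replicate 2 (red), with exact 95% intervals for counting error and the mean as a black line. Mir322 lies highest and Mir16-2 lowest in both libraries, and the points of Mir15b, Mir195a and Mir15a lie furthest apart.

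Mir322, the only member on the X chromosome, had 10570 counts in replicate 1 and 6736 in replicate 2. These are 5094 and 3814 CPM, a mean of 4454 ± 905 CPM (SD, n = 2), and by mean CPM the gene ranked 28 of 2202. It supplied 37.3% of the family's counts in replicate 1 and 36.4% in replicate 2, the steadiest share of the 4 loci.

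Mir15b, in the Smc4 intron, had 7128 and 2287 counts. Its level was 3435 CPM in replicate 1 and 1295 CPM in replicate 2, with a mean of 2365 ± 1513 CPM. The gene was thus the second of the family in replicate 1 and the fourth in replicate 2. Its neighbour Mir16-2 had 488 and 404 counts, or 235 and 229 CPM, nearly the same in both libraries.

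Mir16-1, in Dleu2, had 4177 counts in replicate 1 and 2648 in replicate 2. Its level was 2013 and 1499 CPM, with a mean of 1756 ± 363 CPM. Mir15a, its neighbour, had 2508 and 1020 counts. Its level was 1209 CPM in replicate 1 and 578 CPM in replicate 2, with a mean of 893 ± 446 CPM.

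Mir195a, the member linked to the arrest of the heart muscle cell cycle, had 2055 counts in replicate 1 and 4208 in replicate 2. Its level was 990.4 and 2383 CPM, with a mean of 1686 ± 984 CPM. It was the fifth of the family in replicate 1 and the second in replicate 2. Mir497, beside it, had 1443 and 1219 counts, or 695 and 690.2 CPM, so its 2 values lay within each other's counting intervals (660.0 to 732 and 652 to 730.1 CPM).

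By mean level the order was Mir322, Mir15b, Mir16-1, Mir195a, Mir15a, Mir497 and Mir16-2. Of the 6 pairs of neighbours in this order, 2 differed beyond the spread between libraries: Mir322 lay above Mir15b in every library, and Mir497 above Mir16-2. The 4 neighbouring pairs from Mir15b to Mir497 each overlapped and held their order in only 1 of the 2 libraries. Over all 21 pairs of members, 16 did not overlap. These counts include pairs with Mir16-1 or Mir16-2, whose values lack the reads of the guide they share. The places of Mir16-1 and Mir16-2 in the order therefore do not give the place of that guide. How far the missing reads set the last place of Mir16-2, and its gap to Mir497, was not tested. Dividing CPM by the length of the annotated gene, from 64 bases for Mir15b to 95 for Mir322 and Mir16-2, left the order as it was. The rule of overlap sets both values of 1 member against both of the other, although each library holds both members. It does not use that pairing. No test was run on the order, since an exact test over the same 2 libraries, paired or not, cannot reach a p of 0.05.

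**Figure D2:**
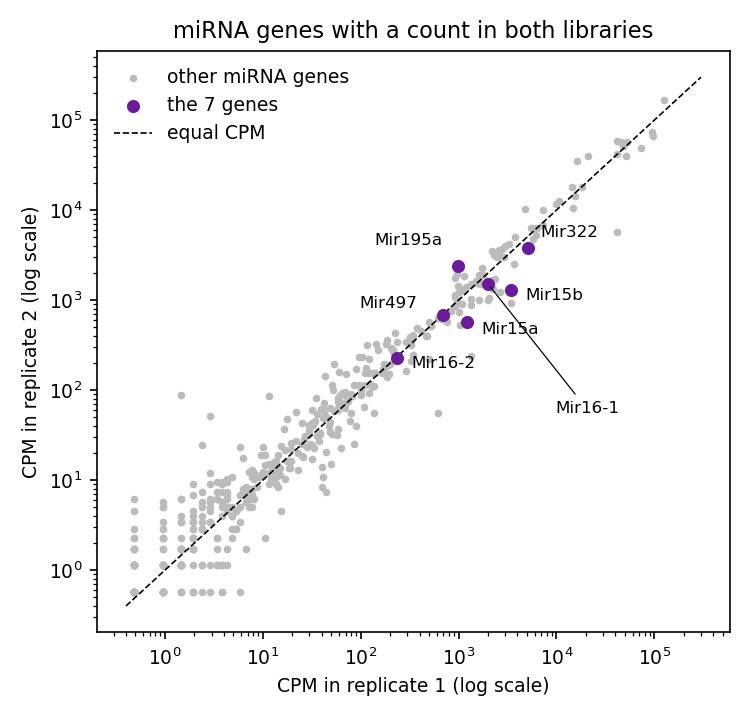
CPM in replicate 1 (horizontal) against replicate 2 (vertical), both on log axes, for each miRNA gene with a count in both libraries (grey) and the 7 members (purple), with a dashed line of equal CPM. Mir16-2 and Mir497 lie on the line, Mir15b and Mir15a below it and Mir195a above it.

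The makeup of the family by locus differed between the libraries. The chromosome 3 locus (Mir15b and Mir16-2) held 26.8% of the family's counts in replicate 1 and 14.5% in replicate 2. The chromosome 11 locus (Mir195a and Mir497) held 12.3% in replicate 1 and 29.3% in replicate 2. The chromosome 14 locus (Mir15a and Mir16-1) held 23.6% and 19.8%. On average the 4 loci gave 36.8% ± 0.630 (Mir322), 21.7% ± 2.66 (chromosome 14), 20.8% ± 12.0 (chromosome 11) and 20.7% ± 8.71 (chromosome 3; SD, n = 2), so the last 3 could not be told apart. With both miR-16 genes left out, the shares in replicates 1 and 2 were 44.6% and 43.5% for Mir322, 30.1% and 14.8% for chromosome 3, 14.8% and 35.1% for chromosome 11 and 10.6% and 6.59% for chromosome 14.

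Differences between the libraries were tested gene by gene by asking how its counts split between them (a binomial test, exact and two-sided). Library sizes were scaled with TMM, a trimmed mean of log ratios, and p-values were adjusted over the 359 genes with 10 or more counts. Such a test sets 1 library against the other and says nothing of a condition. Of the 7 members, 6 passed an adjusted p of 0.05, against 44.3% of all tested genes, with 5 higher in replicate 1 (24.2% of all tested genes) and 1 higher in replicate 2 (20.1%). Deep genes pass more easily: of the 103 genes with 1000 or more counts, 85.4% passed (53.4% higher in replicate 1 and 32% in replicate 2). The 6 members among them all passed, which is close to that background. The median log2 ratio of replicate 2 over replicate 1 was -0.59 over the members, -0.01 over all tested genes and -0.12 over genes with 1000 or more counts.

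Mir15b was 2.98-fold higher in replicate 1 (95% exact interval 2.85 to 3.13), and by absolute log2 ratio it ranked 5 of the 103 deep genes. Mir15a was 2.35-fold higher in replicate 1 (2.19 to 2.53; binomial test, adjusted p = 7.98e-128) and ranked 8. Mir195a was 2.14-fold higher in replicate 2 (2.03 to 2.26; adjusted p = 5.49e-186) and ranked 12. Its log2 ratio of 1.10 was the highest of the 103 deep genes, a fact chosen after its value was seen. These 3 members, 42.9% of the 7, differed by 2-fold or more. So did 19.8% of all tested genes and 11.7% of the deep genes, which do not include Mir16-2. Over the 97 deep genes outside the family the share was 9.28%.

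Mir16-1 was 1.51-fold higher in replicate 1 (1.44 to 1.59; binomial test, adjusted p = 3.25e-62), and Mir322 was 1.50-fold higher in replicate 1 (1.46 to 1.55; adjusted p = 2.04e-152). Mir497 was 1.13-fold higher in replicate 1 (1.05 to 1.22; adjusted p = 0.00374). With library size alone as scaling its log2 ratio was -0.01 and did not pass (adjusted p = 0.920). Mir16-2 did not pass (fold 1.16 towards replicate 1, 1.01 to 1.32; adjusted p = 0.0693), and passed with DESeq2 size factors (adjusted p = 0.0137). With library size alone the log2 ratio of Mir16-2 was -0.04 (binomial test, adjusted p = 0.803). No member changed direction under these scalings. Library size alone moves each log2 ratio by 0.17 towards replicate 2.

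**Figure D3:**
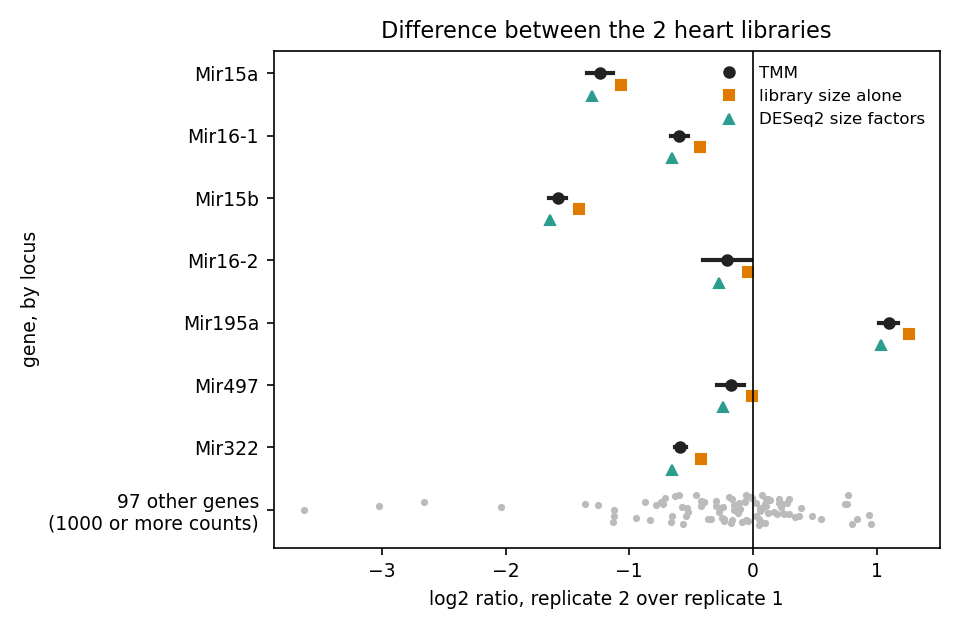
Log2 ratio of replicate 2 over replicate 1 for each member, grouped by locus, with TMM scaling (black, with exact 95% intervals), library size alone (orange squares) and DESeq2 size factors (green triangles). Grey points are the 97 other genes with 1000 or more counts, with vertical position random. Mir195a lies at 1.10 with TMM scaling and the 6 other members lie below 0.

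Markers of other cell types moved between the same libraries. The erythroid markers Mir451a, Mir144 and Mir486 were all higher in replicate 1, as were 5 of the members, with a sum of 45889 CPM in the first library and 7589 CPM in the second. Of the leukocyte markers, Mir142 was higher in replicate 1, at 499.8 and 219 CPM, while Mir150, Mir155 and Mir223 were higher in replicate 2. The endothelial marker Mir126a was 1.66-fold higher (1.65 to 1.67) in replicate 1. The 3 cardiac muscle markers together gave 6143 CPM in replicate 1 against 8701 CPM in replicate 2, without TMM scaling. With it, Mir208a was 1.18-fold (1.15 to 1.22) and Mir499 1.40-fold (1.34 to 1.45) higher in replicate 2, and Mir208b did not pass. This is the direction of Mir195a, shared by markers of other cell types named here. The epithelial markers (5 of 5 detected) summed to 267 and 576 CPM, with 3 of 5 higher in replicate 2 and none higher in replicate 1 by the test. Of the fibroblast markers (4 of 5 detected), Mir214 was 1.69-fold higher in replicate 2 (1.60 to 1.79), on 1922 and 3118 counts. Mir199b was 2.11-fold higher in replicate 1 (1.35 to 3.36), on only 66 and 30 counts. Mir21a and Mir199a-2 did not pass, the latter with 13 and 14 counts. The Mir199 genes were not searched for shared runs, so multimapping reads may be missing from their counts. Of the smooth muscle markers, Mir143 was higher in replicate 1 (1.11-fold, 1.10 to 1.13) and Mir145a in replicate 2 (1.47-fold, 1.39 to 1.55), although without TMM scaling Mir143 stood at 41989 and 42366 CPM, slightly higher in replicate 2. The liver marker Mir122 was 2.05-fold higher (1.48 to 2.87) in replicate 1, at 57.8 and 31.7 CPM. The part of these cell types in the members' differences was not tested. When library sizes were scaled without the erythroid genes, an alternative chosen after seeing the data, 6 members passed again, 5 and 1 in the 2 directions. Of all 359 tested genes, 159 passed under it. This scaling shifted each log2 ratio by only -0.001, so it could hardly change a call. It does not remove reads of the members that come from blood cells, so it does not test their part.

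The genes of 1 locus, which can be cut from 1 transcript, did not keep a fixed ratio of counts. In replicate 1, Mir15b had 14.6 times the counts of Mir16-2 (95% exact interval 13.3 to 16.04), and in replicate 2 it had 5.66 times (5.09 to 6.31). Mir195a had 1.42 times the counts of Mir497 in replicate 1 (1.33 to 1.52), against 3.45 times in replicate 2 (3.24 to 3.68). For Mir16-1 over Mir15a the ratio was 1.67 in replicate 1 (1.58 to 1.75) and 2.60 in replicate 2 (2.41 to 2.79). In each pair the intervals of the 2 libraries did not overlap, and a ratio within a library does not depend on the scaling. In the pairs with a miR-16 gene, reads of the guide shared by both miR-16 loci are missing from 1 side of the ratio, as the printed hairpins show. The chromosome 11 pair has no such shared run.

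**Figure D4:**
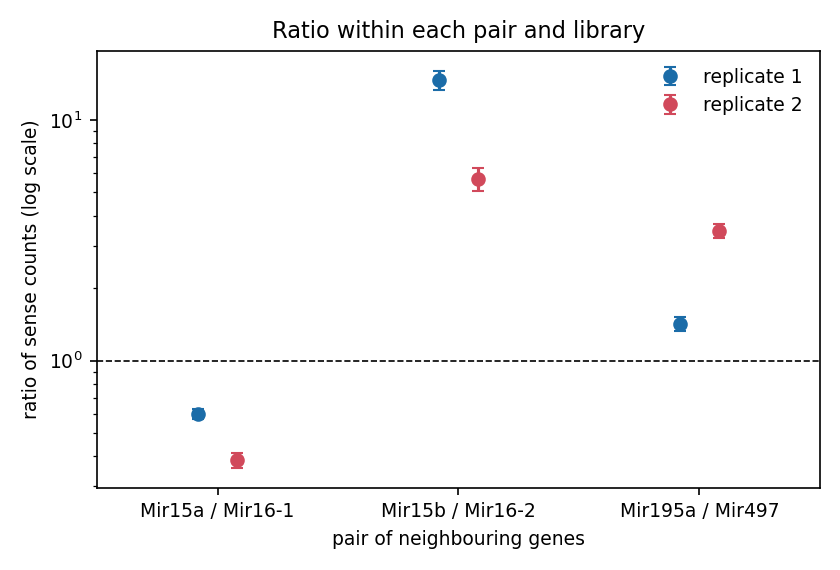
Ratio of sense-strand counts (log axis) within each pair of neighbouring members in replicate 1 (blue) and replicate 2 (red), with exact 95% intervals and a dashed line at equal counts. The ratio was 14.6 in replicate 1 and 5.66 in replicate 2 for Mir15b over Mir16-2, and 1.42 and 3.45 for Mir195a over Mir497.

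Set beside other neighbouring miRNA genes, 2 of these 3 pairs differed the most. Genes with under 400 counts over both libraries were left out first, so a pair may skip a gene, as with Mir351 and Mir322. Among the 34 resulting pairs of neighbours on 1 strand within 10 kb, the absolute difference of log2 ratios had a median of 0.36. It was 1.37 for Mir15b and Mir16-2, which ranked 1 of 34, 1.28 for Mir195a and Mir497, which ranked 2, and 0.64 for Mir15a and Mir16-1, which ranked 11. Over the 31 other pairs, which include that of the member Mir322 with Mir351, the median of the absolute difference was 0.31. Pairs with a miR-16 gene lack the guide reads shared by both miR-16 loci. Most genes of the other pairs were not searched for shared runs, so some of those pairs may lack such reads too. Some of the 34 pairs share a gene, and this comparison was chosen after the ratios were seen.

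The Mir322 cluster showed unequal counts along 1 strand. Mir322 itself held 64.7% of the cluster's counts in replicate 1 and 51.1% in replicate 2, and Mir351, whose guide has the seed CCCUGAG (miR-351-5p: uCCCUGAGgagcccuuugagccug), held 29.2% and 42.0%. The ratio of Mir322 to Mir351 was 2.21 in replicate 1 (2.14 to 2.29) and 1.22 in replicate 2 (1.17 to 1.26). Mir351 was 1.21-fold higher in replicate 2 (1.17 to 1.26), the opposite direction to Mir322. Mir503, which begins 0.295 kb downstream of the Mir322 start, had 151 and 132 counts, or 72.8 and 74.7 CPM, and Mir322 exceeded it by 70.0 times (59.6 to 82.8) and 51.0 times (43.0 to 61.1). Mir542 stood at 323 and 354 CPM and Mir450b at 69.4 and 63.4 CPM. The annotation's Mir450-2 and Mir450-1, the copies of Mir450a, had 31 and 24 counts and 2 and 9 counts. These 2 hairpins share a run of 25 bases that holds their whole guide, so, as for miR-16, reads of that guide are missing from these counts and from the cluster total. Of the 7 genes of the cluster, 6 were detected, and Mir322 and Mir351 were the ones that passed the test between the libraries.

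**Figure D5:**
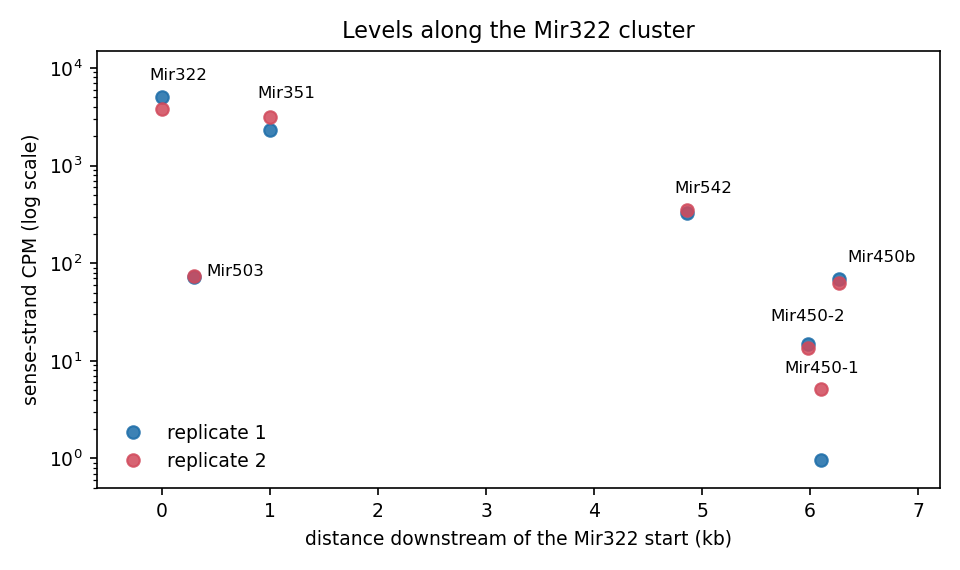
Sense-strand CPM (log axis) in replicate 1 (blue) and replicate 2 (red) of the 7 miRNA genes of the Mir322 cluster, by distance in kb downstream of the Mir322 start on the minus strand. Mir322 lies highest, Mir351 next, and Mir503, between them, lies at 72.8 and 74.7 CPM.

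Strand decided whether 1 member was seen at all. On its own strand Mir497 had 1443 and 1219 counts, and when strand was ignored it had 0 in both libraries, because Mir497b is annotated across it. Mir497b had 0 sense-strand counts, and the 1443 and 1219 reads opposite to it are those of Mir497. The other 6 members had equal counts with and without regard to strand, and no member had a read on the strand opposite to it. Of the 7 other genes listed for the seed group (Mir503, Mir195b, Mir497b, Mir6342, Mir6353, Mir6419 and Mir1907), Mir503 was the only one with sense-strand counts. Its guide has the seed AGCAGCG, and only Mir195b, Mir6342, Mir6353 and Mir6419 of this list have the members' seed.

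The gene nearest to each member in level over the 2 libraries, by straight-line distance in log2(CPM + 1), was found among the non-members. It was Mir151 for Mir322, with 5830 and 4757 CPM, and Mir34a for Mir15b, with 2630 and 1242 CPM. For Mir16-1 it was Mir140, for Mir15a Mir10b and for Mir16-2 Mirlet7f-1. For Mir195a it was Mir150, a leukocyte marker, with 971 and 1955 CPM, and for Mir497 it was Mir467d, with 732 and 652 CPM. The distances ran from 0.11 for Mir467d to 0.39 for Mir34a, and over 2 libraries such likeness is a description of level only.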

How the data were processed

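The authors deposited raw read counts per miRNA gene of GENCODE M21 on mm10, per the labels and the deposited notes, in 3 columns: both strands together, the gene's own strand (sense) and the opposite one. Aligner and counter: not given in the sources used here. The sense column was used; the 4 rows that name no gene stayed out of library sizes and tests. All 2202 gene IDs matched GENCODE M21. CPM was computed over gene rows. TMM sizes came from edgeR 4.0.16, alternative size factors from DESeq2 1.42.0. Log2 ratios use a prior count of 0.5. Genes with 10 or more counts were tested with an exact binomial test and Benjamini-Hochberg adjustment at 0.05, since 1 library a side leaves edgeR's quasi-likelihood test no residual degrees of freedom. Intervals (Clopper-Pearson, 95%) and floors cover counting error only, because PCR reads without molecular identifiers are not independent molecules. The test was checked on simulated counts that held counting error alone (Poisson draws), so the check says nothing of further spread between libraries. Members and lists were chosen with earlier results of these data known. Named genes are the members, the related and marker lists, and each member's nearest gene. The median over genes of 1000 or more counts, the neighbour pairs the shares without miR-16 genes and the scaling without erythroid genes were chosen after seeing the data.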

Additional observations from a re-analysis of the deposited data

How the results depend on the processing

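The family's summed level moved from 12079.7 CPM to 15811 CPM with counts taken without regard to strand, where many reads fall into the ambiguous row and the total is smaller, and to 4386 CPM over all reads of the tables. It ranged from 10487 to 13672 CPM when either library was left out and was 10092 CPM without Mir16-1 and Mir16-2. The order of members held in 17 to 21 of 21 pairs over 4 alternatives. With either library left out it held in 17 pairs (without replicate 1) and 20 (without replicate 2). Of the 7 members, 5 passed the test with library size alone, against 170 of all 359 tested genes. With DESeq2 size factors 7 passed, against 156 of 359. Under each of 4 other settings 6 members passed. Over all tested genes, 151 of 628 passed with no filter on counts and 160 of 374 with a mean of 2 CPM or more. It was 159 of 359 with sizes scaled without the erythroid genes. With unstranded counts 148 of 335 genes passed, Mir497 was not tested and Mir16-2 passed. No member reversed under the 5 settings run for the log2 ratios; Mir497 lost its call with library size alone (-0.01), and Mir16-2 gained one with DESeq2 size factors (-0.27) and with unstranded counts (-0.25). Without regard to strand, no ratio of Mir195a to Mir497 could be given, since Mir497 is then at 0. No paired comparison of conditions was possible because there is 1 group. The number of libraries (2) and reads that map to several places, most of all for the miR-16 guide, limit precision.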
